A study of Mus musculus with 6 samples.

Results

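The peaks of Chd4 in cells labelled iKO were compared with the peaks of Seh1 in cells labelled Ctrl, to ask whether Chd4 was listed after loss of Seh1 where Seh1 had been listed before. The members were all peaks of these 2 lists, 21294 Chd4 iKO peaks and 20833 Seh1 Ctrl peaks, together 42127 of the 97783 peaks in the 6 lists of the series. The material was primary neural stem cells cultured from newborn mouse cortex with EGF and bFGF, profiled by ChIP-seq, in which DNA bound to the target protein is pulled down with an antibody and sequenced. The Chd4 iKO cells had a mutant genotype and received 4-OH-TAM in their growth medium, and the Seh1 Ctrl cells were wild type in growth medium alone. The other lists, used only beside these, were Chd4 siSeh1, Chd4 siSCR and Chd4 Ctrl, all wild type in growth medium, and Seh1-flag, titled iKO, labelled wild type and treated with 4-OH-TAM. The labels do not spell out iKO, and it is read here as deletion of Seh1. The sources used here do not give the driver of the deletion, and peak lists do not show whether Seh1 was gone. Each group was 1 library, so a difference between lists is a difference between libraries, with no replicate check and no p-value. The 2 lists also differ in target, genotype and treatment at once, and the contributions of these cannot be told apart.

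Seh1 is a small beta-propeller nucleoporin of the Y-shaped scaffold of the nuclear pore and also a subunit of GATOR2, which acts on the mTORC1 pathway. Chd4 is the remodelling ATPase of the NuRD complex, which moves nucleosomes and removes histone acetyl groups at promoters, enhancers and heterochromatin. Mouse pericentromeric heterochromatin is built from tandem gamma (major) satellite DNA, annotated as GSAT_MM. Genome assemblies hold few of its copies, so a position in such a repeat stands for many places in the genome.

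Promoter sequences are shown for 3 genes whose promoters, taken as 1 kb on either side of the transcription start site (TSS), held a peak in both lists. They come from RefSeq on GRCm38.p6 (the assembly behind mm10) and run 5′ to 3′ on the gene's strand, from 250 bases before to 50 after the start. At Ppp2r3a (chr9:101251783-101252082, minus strand), which encodes a regulatory subunit of protein phosphatase 2A, the peaks overlapped. Capitals mark the 196 bases that lay in both the Chd4 iKO window and the Seh1 Ctrl interval. At Kifc1 (chr17:33890584-33890883, minus strand), a minus-end kinesin of the spindle, and Chgb (chr2:132781392-132781691, plus strand), a granin of secretory granules, the peaks were apart. There the capitals mark the Chd4 iKO window alone, since the Seh1 interval lay outside the stretch shown.
Ppp2r3a: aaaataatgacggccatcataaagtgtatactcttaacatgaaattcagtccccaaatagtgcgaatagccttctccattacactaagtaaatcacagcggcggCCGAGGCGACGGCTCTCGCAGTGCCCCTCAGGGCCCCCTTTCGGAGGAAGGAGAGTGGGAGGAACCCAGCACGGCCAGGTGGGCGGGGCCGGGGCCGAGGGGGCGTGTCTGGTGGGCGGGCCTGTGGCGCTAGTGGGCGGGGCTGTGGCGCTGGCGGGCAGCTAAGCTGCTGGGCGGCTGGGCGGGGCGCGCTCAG
Kifc1: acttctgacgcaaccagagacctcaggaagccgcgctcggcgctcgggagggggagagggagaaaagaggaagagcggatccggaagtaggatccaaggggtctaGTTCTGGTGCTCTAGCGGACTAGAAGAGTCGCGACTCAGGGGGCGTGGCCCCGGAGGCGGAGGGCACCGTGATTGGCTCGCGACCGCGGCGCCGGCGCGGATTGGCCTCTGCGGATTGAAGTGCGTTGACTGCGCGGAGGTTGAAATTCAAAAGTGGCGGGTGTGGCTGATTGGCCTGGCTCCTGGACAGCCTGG
Chgb: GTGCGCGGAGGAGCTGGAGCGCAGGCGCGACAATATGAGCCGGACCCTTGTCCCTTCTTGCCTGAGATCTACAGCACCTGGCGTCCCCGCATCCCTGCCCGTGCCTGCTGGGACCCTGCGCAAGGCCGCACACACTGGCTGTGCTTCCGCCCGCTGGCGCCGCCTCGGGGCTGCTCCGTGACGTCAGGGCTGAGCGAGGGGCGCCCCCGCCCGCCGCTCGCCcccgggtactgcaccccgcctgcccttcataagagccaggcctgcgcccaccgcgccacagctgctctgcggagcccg
The motif GGGCGG, the core of a GC box, was searched on both strands. It occurred 5 times at Ppp2r3a, 2 times at Chgb and 0 times at Kifc1, and 35.7% of the 32851 promoters in the table held it. CCAAT, also on both strands, occurred 3 times at Kifc1 and 0 times at both other promoters, against a share of 37.4% in the table. The 3 stretches held 23, 28 and 31 CG dinucleotides at Ppp2r3a, Kifc1 and Chgb, and the median promoter held 7. A second set of 1 sequence is shown because its gene is the nearest one to the largest run of shared peaks on an assembled chromosome. It is the mature microRNA mmu-miR-101c (chr9:3038680-3038698, minus strand, RefSeq, same build), with its seed, bases 2 to 8, in capitals.
mmu-miR-101c: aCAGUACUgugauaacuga

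The 2 lists had few positions in common. Of the 21294 Chd4 iKO peaks, each widened to 240 bp on its summit, 237 overlapped a Seh1 Ctrl interval by at least 1 bp, which is 1.11% (95% interval 0.976 to 1.26%). Seen from the other side, 236 of the 20833 Seh1 Ctrl peaks overlapped a Chd4 iKO window, which is 1.13% (0.994 to 1.29%). These intervals are exact Clopper-Pearson intervals and cover counting error only. The peaks were spread widely: the median distance from a Chd4 iKO peak to the nearest Seh1 Ctrl peak was 41.4 kb, and 2.86% of the iKO peaks had one within 1 kb. In the opposite direction the median was 41.1 kb and the share within 1 kb was 2.93%.

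Gamma satellite DNA was where the lists coincided. Among the 108 Chd4 iKO peaks in annotated satellites, 73 overlapped a Seh1 Ctrl peak (67.6%, 57.9 to 76.3%), and 72 of the 104 satellite peaks of Seh1 Ctrl overlapped a Chd4 iKO window (69.2%, 59.4 to 77.9%). All of these lay in GSAT_MM, where 73 of 85 iKO peaks (85.9%, 76.6 to 92.5%) and 72 of 81 Seh1 Ctrl peaks (88.9%, 80.0 to 94.8%) were shared. The other satellite family with peaks in number, IMPB_01, had 20 peaks in each list and none shared (95% upper bound 16.8%). Satellites made up 0.507% of the Chd4 iKO list and 0.499% of the Seh1 Ctrl list, but 30.8% of the shared iKO peaks, against 0.166% of the unshared ones. The median offset between summit and interval centre was 22 bp over the 73 satellite pairs and 124 bp over the other 164 pairs. Of the satellite pairs, 58 had their centres within 60 bp, and of the other pairs 38.

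**Figure D1:**
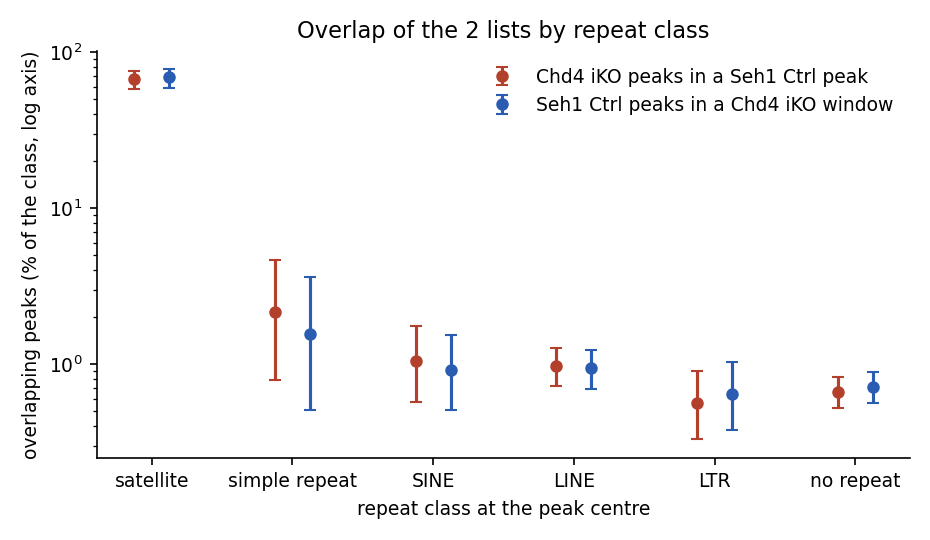
Share of peaks that overlapped the other list, by repeat class at the peak centre, on a log axis; red points are Chd4 iKO peaks inside Seh1 Ctrl peaks, blue points Seh1 Ctrl peaks inside Chd4 iKO windows, and bars are exact 95% binomial intervals. Satellites stand at 67.6% and 69.2%, while LINE, SINE, LTR, simple repeats and sequence outside repeats lie between 0.564% and 2.15%.

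Of the 73 satellite pairs, 72 came from 3 short stretches of the assembly, and the other one was on the unplaced sequence GL456383 with a score of 4.98. Runs of at least 3 shared peaks with gaps under 20 kb were found on chromosome 9 (chr9:3000329-3038126), on chromosome 14 (chr14:19415795-19419389) and on the unplaced sequence JH584304 (positions 68929 to 114244). They cover 86.7 kb together and held 73 of the 237 shared iKO peaks, counting 1 outside GSAT_MM. Because the runs were found from the shared peaks, the shares inside them are a description. On chromosome 9, 31 of 33 Chd4 iKO peaks and 31 of 34 Seh1 Ctrl peaks were shared, with a median offset of 16 bp. On JH584304, 37 of 40 Chd4 iKO peaks and 36 of 38 Seh1 Ctrl peaks were shared, with a median offset of 22 bp. On chromosome 14 all 5 peaks of each list were shared, at offsets of up to 152 bp. The peak of highest score among all shared ones was on chromosome 9 at 3008579, with a score of 29.7 and 13 bp from the centre of its Seh1 Ctrl interval. The next 3, at 3010981, 3012272 and 3033817 of the same stretch, had scores of 28.3, 26.8 and 26.5 and offsets of 16, 2 and 6 bp.

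These stretches are named in the lists by whatever gene is nearest. Mir101c, the gene of the microRNA shown above, was the nearest gene of 33 Chd4 iKO peaks and 34 Seh1 Ctrl peaks, and the pseudogene Pisd-ps3 of 71 Chd4 iKO peaks and 42 Seh1 Ctrl peaks. At Mir101c 1 shared peak was listed within 1 kb of the start, 736 bp from it with a score of 10.3, and it was the only shared peak of the 3 stretches outside GSAT_MM. Peaks stood in the same stretches in other libraries too. Chd4 siSeh1 had 33 peaks on chromosome 9, 39 on JH584304 and 4 on chromosome 14, Seh1-flag had 15, 31 and 0, Chd4 siSCR had 2, 7 and 0, and Chd4 Ctrl had 1, 0 and 0. Of GSAT_MM peaks, 70 of 84 in Chd4 siSeh1 overlapped a Seh1 Ctrl peak (83.3%, 73.6 to 90.6%), near the 85.9% of Chd4 iKO. In Seh1-flag it was 35 of 82 (42.7%), in Chd4 siSCR 7 of 12 (58.3%) and in Chd4 Ctrl 1 of 3. The Chd4 siSCR and Chd4 Ctrl lists are short, with 2606 and 1154 peaks. Their satellite shares were 0.652% and 0.260%, on either side of the 0.507% of Chd4 iKO, and list length and condition cannot be told apart in these counts.

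**Figure D2:**
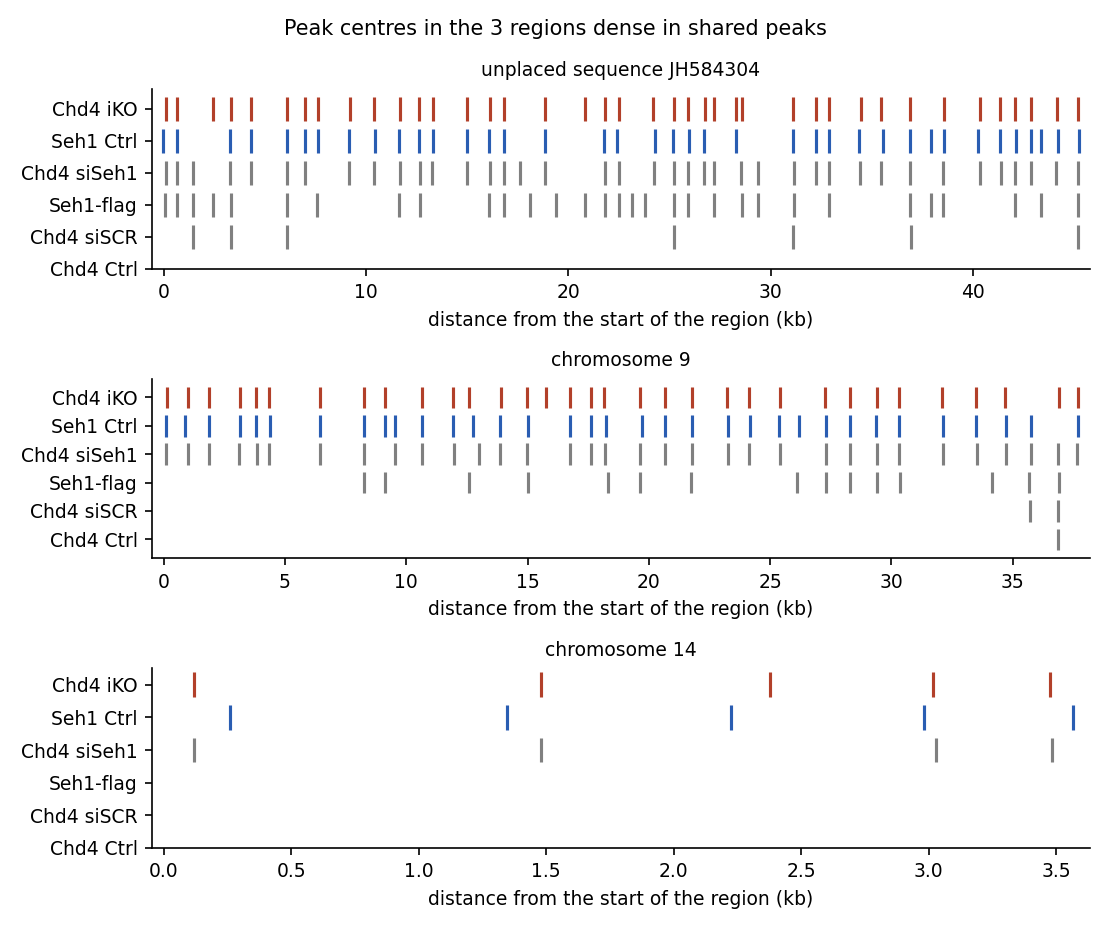
Peak centres in the 3 stretches dense in shared peaks, by distance from the start of each stretch in kb, with 1 row for each list; each tick is a peak. Chd4 iKO (red) and Seh1 Ctrl (blue) ticks fall at nearly the same places in the upper panels (median offsets 22 and 16 bp), Chd4 siSeh1 and Seh1-flag hold many of the same places, and Chd4 siSCR and Chd4 Ctrl few or none.

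Shared satellite peaks had high scores within the Chd4 iKO list, although the highest, 49.8, was that of an unshared peak outside satellites. The score is the authors', its scale is not stated, and it ranks peaks within this list only, since all 20833 Seh1 Ctrl scores were deposited as 0. The median score was 11.1 for the 73 shared satellite peaks and 3.93 for the 35 unshared satellite peaks, with ranges of 2.15 to 29.7 and 2.30 to 16.5. The unshared ones include other satellite families. Within GSAT_MM alone, which held all 73 shared peaks, the 12 unshared peaks had a median of 5.22 (range 2.83 to 14.0). Outside satellites the medians were nearly equal, 3.45 for the 164 shared peaks and 3.39 for the 21022 unshared ones. In the highest decile of the list by score 95 of 2130 peaks were shared, 68 of them in satellites. Without satellites the highest decile had 27 of 2052 peaks shared (1.32%, 0.869 to 1.91%), and the other deciles lay between 0.517% and 0.987%. The Seh1 Ctrl intervals, which carry no score, were wider where shared in satellites, with a median of 341 bp, against 257 bp for unshared satellite intervals. Of these 32 unshared intervals, 20 were in IMPB_01, and the widths were not compared within GSAT_MM alone. Outside satellites the shared intervals had a median of 293 bp, against 273 bp for unshared ones.

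**Figure D3:**
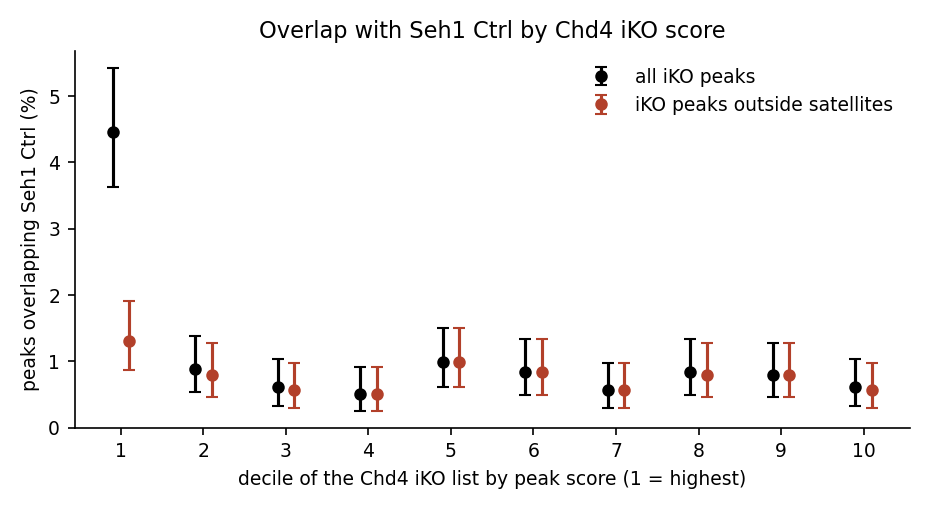
Share of Chd4 iKO peaks that overlapped a Seh1 Ctrl peak, in deciles of the list from highest (1) to lowest (10) score; black points are all peaks, red points peaks outside satellites, and bars are exact 95% binomial intervals. The highest decile stands at 4.46% with satellites and 1.32% without, and the other deciles below 1%.

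Outside satellites 164 Chd4 iKO peaks were shared, which is 0.774% of 21186 (0.660 to 0.902%), and these were 0.791% of the 20729 Seh1 Ctrl peaks outside satellites. To see how local this was, pairs of centres were counted by distance. Within 240 bp there were 308 pairs per kb of distance, against 186 per kb between 1 and 10 kb, a ratio of 1.66 (1.40 to 1.96). With satellites the ratio was 1.90 (1.65 to 2.18). For iKO peaks in LINE elements it was 1.92 (1.39 to 2.60) and for iKO peaks outside repeats 1.43 (1.09 to 1.83). Both were counted against all Seh1 Ctrl peaks outside satellites. For iKO peaks outside repeats the excess lay between 60 and 240 bp, with 142 and 150 pairs per kb in its steps. Under 60 bp these peaks had 91.7 per kb (11 pairs), beside 93.5 per kb between 1 and 10 kb. With both lists limited to peaks outside repeats the ratio was 2.06 (1.54 to 2.72). Without satellites the excess was confined to the first 3 distance steps, with 317, 333 and 292 pairs per kb up to 240 bp and 187 per kb from 240 to 500 bp. The excess was not particular to Chd4 iKO. Without satellites the ratio against Seh1 Ctrl was 2.87 (1.67 to 4.64) for Chd4 Ctrl and 2.78 (1.90 to 3.94) for Chd4 siSCR. These rest on 18 and 34 pairs within 240 bp, and their wide intervals overlap that of Chd4 iKO. For Chd4 siSeh1 it was 1.30 (1.085 to 1.541) and for Seh1-flag 1.21 (1.006 to 1.436). All these ratios describe single libraries and are no test.

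**Figure D4:**
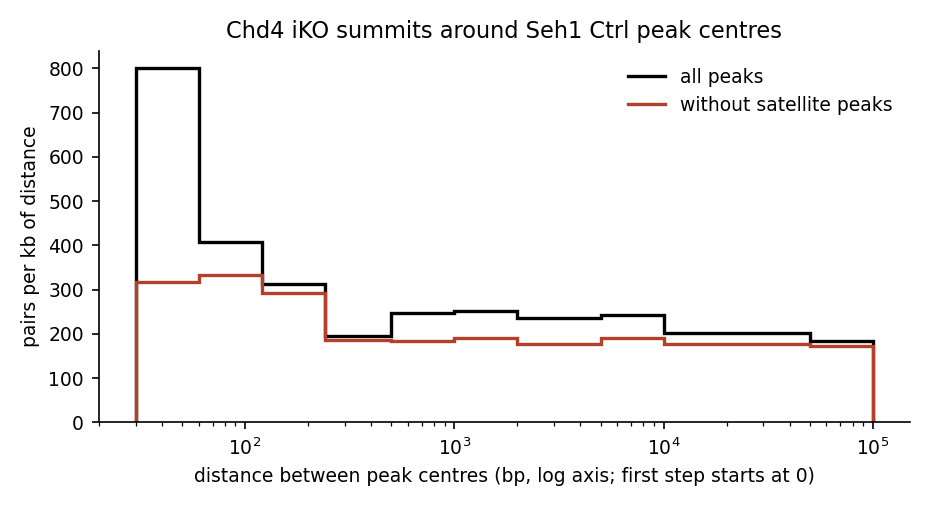
Number of pairs of a Chd4 iKO summit and a Seh1 Ctrl peak centre per kb of distance, against the distance between them on a log axis, for all peaks (black) and without satellite peaks (red). All peaks start at 800 pairs per kb under 60 bp; without satellites the curve starts at 317 and lies between 174 and 191 beyond 240 bp.

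Outside satellites the shared peaks fell in several repeat classes and in none. LINE elements held 50 of the 164 (30.5%, 23.5 to 38.2%), against 24.3% of unshared iKO peaks, and 73 lay outside any repeat (44.5%, 36.8 to 52.5%), against 52.1%. Simple repeats held 3.66% of the shared peaks (1.35 to 7.79%), against 1.30% of the unshared peaks outside satellites. The promoter-TSS annotation held 1.22% (0.148 to 4.34%), against 4.90%. Among LINEs, the young families L1Md_T and L1Md_A had 13 of 722 and 9 of 548 iKO peaks shared (1.80% and 1.64%), and L1Md_F2 had 3 of 759 (0.395%). Intergenic sequence held 61.6% of the 164 and introns 32.9%. In the (CTGTG)n simple repeat 3 of 5 iKO peaks were shared, a family named after its values were seen. Of the 164 peaks, 148 (90.2%, 84.6 to 94.3%) overlapped no peak of the 4 other lists, against 94.7% of the unshared iKO peaks outside satellites, and 12 (7.32%, 3.84 to 12.4%) overlapped a Chd4 siSeh1 peak, against 4.79% of all iKO peaks. Of the 73 shared satellite peaks, 67 (91.8%, 83.0 to 96.9%) overlapped a Chd4 siSeh1 peak.

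Single loci outside the satellite stretches could be named. The highest score there was 19.1, in an RLTR11A long terminal repeat at chromosome 18, 3005844, which the list assigns to the pheromone receptor gene Vmn1r238, 117568 bp away. An intergenic peak of score 10.5 was assigned to Smgc, a mucin-like gene of salivary glands, 71383 bp away. Peaks of score 9.71 and 9.67 were assigned to Cyp2c29, a cytochrome P450, and Defb7, a beta-defensin. The last 2 belong to families of near-identical neighbouring genes, where reads of one copy can be placed at another. Whether this holds for the other loci outside the stretches was not checked.

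Smo, the transducer of Hedgehog signals, had a shared peak in intron 1 of 11 in a (CTGTG)n repeat (chromosome 6, 29748406). Its Chd4 iKO score was 10.3, its Seh1 Ctrl interval ran from 29748064 to 29748515, and Chd4 siSeh1, Chd4 siSCR and Seh1-flag had a peak there as well. A peak in the same kind of repeat, in intron 1 of the non-coding gene 2700054A10Rik, had a score of 11.8 and was also in 3 other lists; it is named here after its values were seen. Speer4c, Pisd-ps1 and Adam29 each had 1 shared peak found in 2 other lists, with scores of 8.22, 6.15 and 5.88. The peak assigned to Adam29, which encodes a sperm-surface protein, lay 396492 bp from the gene. Pisd-ps1 had another shared peak, with a score of 8.44, that was in none of the other lists. Rn45s, the 45S ribosomal RNA precursor, had a shared peak in its single annotated exon with a score of 5.75, inside the widest Seh1 Ctrl interval, 1296 bp. It too is a gene of many copies, and it was named after its values were seen.

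Few promoters held a peak in both lists. Chd4 iKO had a peak within 1 kb of the TSS of 1245 genes and Seh1 Ctrl of 282 genes, and 18 genes had both, which is 1.45% of the iKO promoter genes (0.859 to 2.28%) and 6.38% of the Seh1 Ctrl promoter genes (3.83 to 9.90%). Of the 18, 15 were protein-coding. Promoters held 8 of the 237 shared iKO peaks (3.38%, 1.47 to 6.54%), an interval that covers the 5.99% of the unshared ones. Without satellite peaks the share of shared iKO peaks was 4.88% (2.13 to 9.39%). For Seh1 Ctrl the order was the opposite, with 3.39% of the shared peaks at promoters (1.48 to 6.57%), against 1.33% of the unshared ones. In the Chd4 iKO list 8 of 1270 iKO promoter peaks were shared (0.630%, 0.272 to 1.24%), and in the Seh1 Ctrl list 8 of 282 (2.84%, 1.23 to 5.51%), beside 1.11% and 1.13% over all peaks. The median distance from an iKO promoter peak to a Seh1 Ctrl peak was 51.6 kb, against 40.8 kb for iKO peaks away from promoters. In the Seh1 Ctrl list promoter peaks were a median of 34.5 kb from a Chd4 iKO peak, against 41.2 kb for those away from promoters. The 8 shared promoter peaks had a median score of 3.39 (range 2.71 to 10.3), against 4.74 for the unshared promoter peaks. The median of the whole Chd4 iKO list was 3.39.

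The overlapping promoter pair closest to a start site was at Ppp2r3a, whose sequence is shown above. The Chd4 iKO summit lay 27 bp upstream of the TSS with a score of 4.74, and the Seh1 Ctrl interval centred 43 bp from it. Cyp21a1, steroid 21-hydroxylase of the adrenal, had a Chd4 iKO summit 277 bp upstream with a score of 2.76 and a Seh1 Ctrl centre 147 bp from it. A near-identical pseudogene copy, Cyp21a2-ps, lies on the same chromosome, and reads of the copies may not be separable. Esrrb, an orphan nuclear receptor of pluripotent cells, had a summit 521 bp downstream with a score of 4.62. The summits at Aldh3b2, an aldehyde dehydrogenase, and Sptbn4, a spectrin of axon initial segments, lay 749 and 930 bp downstream with scores of 3.39 each. Olfr56, an odorant receptor, had its shared peak in its single exon with a score of 2.86, and the non-coding Gm13539 one with a score of 2.71.

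Apart from Mir101c, described above, the other promoters with a peak in both lists had peaks that did not overlap there. Asf1b, a histone H3-H4 chaperone of S phase, had a Chd4 iKO summit 299 bp upstream and a Seh1 Ctrl centre 985 bp downstream. Chpf, a chondroitin polymerizing factor, had its Chd4 iKO summit 83 bp and its Seh1 Ctrl centre 452 bp downstream. At Kifc1 the positions were 26 bp upstream for Chd4 iKO and 358 bp downstream for Seh1 Ctrl, and at Chgb 148 and 412 bp upstream. Stmn1, the microtubule regulator stathmin of neural progenitors and neurons, had Chd4 iKO at 63 bp upstream with a score of 6.34 and Seh1 Ctrl at 723 bp upstream. For 3 further genes the peaks lay near different annotated start sites. Sfi1, a centrosome protein, had the highest Chd4 iKO promoter score of the 18 apart from Mir101c, 8.99 at 3193416 on chromosome 11, and a Seh1 Ctrl interval from 3199631 to 3199934. B3galt5, a galactosyltransferase, had its Chd4 iKO summit at 96274061 on chromosome 16 and its Seh1 Ctrl interval from 96280428. The small nucleolar RNA Snord116l2, a member of a repeated cluster, had peaks no closer than 19668 bp.

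Sharing a nearest gene was far more common than sharing a position. Chd4 iKO peaks named 9772 genes and Seh1 Ctrl peaks 9134, and 5414 were named by both, which is 55.4% of the iKO genes and 59.3% of the Seh1 Ctrl genes. The closest peaks of a gene named by both were a median of 13.2 kb apart, and 7.24% of these genes had a pair within 1 kb. Naming followed gene length. Of 21896 protein-coding genes, 36.8% were named by Chd4 iKO, 34.1% by Seh1 Ctrl and 19.8% by both. The share named by both was 11.4% in the lowest quartile of gene length, 17.2% in the third and 38.8% in the highest, and the median length was 42.7 kb for genes named by both, against 11.3 kb for genes named by neither.

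By the smaller of its counts in the lists, Pisd-ps3, described above, had the most peaks in both. Among the other genes named here, Lrrc4c, a netrin-G ligand of synapses, was named by 37 Chd4 iKO and 43 Seh1 Ctrl peaks, and no pair overlapped, the closest being 825 bp apart. Brinp3, a neural protein of the BMP/retinoic acid-inducible family, had 24 peaks in each list and 1 shared peak, 114 bp off centre in intergenic sequence. Ptprd, a synaptic receptor phosphatase, had 24 Chd4 iKO and 23 Seh1 Ctrl peaks, and the closest were 3731 bp apart. Cntnap2, a neurexin-like protein, had 23 and 22 peaks at no less than 2885 bp. The cadherins Cdh9 (19 Chd4 iKO, 24 Seh1 Ctrl) and Cdh11 (21 and 18), the latrophilin Adgrl3 (19 and 20), the contactin-associated Cntnap5a (19 and 20) and the adhesion molecule Ncam2 (17 and 23) had no overlapping pair either. Dmd, which encodes dystrophin and is the longest gene named by both at 2390 kb, had 14 Chd4 iKO and 21 Seh1 Ctrl peaks and 1 shared peak, in a LINE of intron 57 of 78, with a score of 3.17.

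Gene lists of the field were looked up next. Of their 253 protein-coding members 2 had a shared peak (0.791%), beside 0.493% of all protein-coding genes. The NuRD list had 6 of 15 members named by Chd4 iKO, 5 by Seh1 Ctrl and 2 by both, beside 36.8%, 34.1% and 19.8% of all protein-coding genes. Gatad2a, a NuRD scaffold subunit, had a Chd4 iKO promoter peak of score 9.48 and Mbd3 one of 5.59, without a Seh1 Ctrl promoter peak. Among Polycomb genes and other remodellers 13 of 26 were named by Chd4 iKO, 9 by Seh1 Ctrl and 8 by both. Ezh2, the methyltransferase of Polycomb repressive complex 2, had a Chd4 iKO promoter score of 11.2, and its nearest Seh1 Ctrl peak was 2140 bp from a Chd4 iKO peak. Of 29 nuclear pore and GATOR2 genes 13 were named by Chd4 iKO, 9 by Seh1 Ctrl and 4 by both, with Chd4 iKO promoter peaks at Nup93, Nup50 and Wdr59 and no Seh1 Ctrl one.

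Of 24 neural stem cell genes 11 were named by Chd4 iKO, 12 by Seh1 Ctrl and 10 by both (41.7%, 22.1 to 63.4%). Over all protein-coding genes the shares were 36.8%, 34.1% and 19.8%. Hes1, a Notch effector, was named by 1 Chd4 iKO and 1 Seh1 Ctrl peak, 54699 bp apart. Of 30 neurogenic and neuronal genes 19, 15 and 12 were named by Chd4 iKO, Seh1 Ctrl and both. In this list Nrxn3, a presynaptic adhesion gene, had the single overlapping pair, in intron 14 of 19 with a score of 2.79, and Stmn1 the single promoter with both peaks. Of 30 Notch, Wnt and Hedgehog genes 19, 15 and 13 were named by Chd4 iKO, Seh1 Ctrl and both, with the pair at Smo the only overlap. Of 35 cell cycle genes 12 were named by Chd4 iKO, 7 by Seh1 Ctrl and 3 by both (8.57%, 1.80 to 23.1%). Their median length was 14.7 kb, against 10.11 kb for the neural stem cell genes. It was 25.98 kb for the neurogenic and neuronal genes and 46.23 kb for the Notch, Wnt and Hedgehog genes. The neural stem cell genes were thus shorter than the cell cycle genes, yet a larger share was named by both. In the cell cycle list 7 had a Chd4 iKO promoter peak, beside 5.07% of all protein-coding genes. Among them were Bub1, a spindle checkpoint kinase (score 9.38), and E2f1 (7.83). Ccnb1, mitotic cyclin B1, had the single Seh1 Ctrl promoter peak of that list, 595 bp downstream, and no Chd4 iKO peak. Chd4 iKO promoter peaks were not particular to the cell cycle list. Counts were 6 of 26 for Polycomb and remodellers, 4 of 24 for neural stem cell genes and 2 of 15 for NuRD. They were 3 of 29 for nuclear pore and GATOR2, 2 of 22 for p53 targets and 2 of 30 for Notch, Wnt and Hedgehog. Lower down were 1 of 30 for neurogenic and neuronal genes and 1 of 14 for oligodendrocyte markers. The astrocyte and the microglial and endothelial lists had 0 of 14 each.

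Of 22 p53 targets 8 were named by Chd4 iKO, 8 by Seh1 Ctrl and 4 by both, beside 36.8%, 34.1% and 19.8% of all protein-coding genes. Of the markers of other cells, 1 of 14 oligodendrocyte, 5 of 14 astrocyte and 5 of 14 microglial and endothelial markers were named by both. None of these markers had an overlapping pair, where 0.493% of all protein-coding genes had a shared iKO peak. The genes chosen whatever their values gave little. Seh1l, which encodes Seh1, was named by 1 Seh1 Ctrl peak and 0 Chd4 iKO peaks. Chd4 and Cdkn1a, the kinase inhibitor p21, were the nearest-TSS gene of no peak in either list.

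The overlap with Seh1 Ctrl can be read beside that of the other lists, which share the Seh1 Ctrl library. It was 1.11% for Chd4 iKO, 0.802% for Chd4 siSeh1 (0.699 to 0.916%), 0.705% for Seh1-flag (0.605 to 0.817%), 1.65% for Chd4 siSCR (1.20 to 2.22%) and 1.73% for Chd4 Ctrl (1.06 to 2.66%). Without satellites the shares were 0.774%, 0.544%, 0.567%, 1.39% and 1.65% in the same order. The short Chd4 siSCR and Chd4 Ctrl lists thus had the higher shares, with wide intervals. With each list held to its 1154 peaks of highest score, the share was 6.93% for Chd4 iKO (5.54 to 8.55%), 5.29% for Chd4 siSeh1, 3.03% for Seh1-flag, 2.43% for Chd4 siSCR and 1.73% for Chd4 Ctrl. Without the satellite peaks among them it was 1.48% for Chd4 iKO (0.846 to 2.39%), 0.639% for Chd4 siSeh1, 2.04% for Seh1-flag, 1.93% for Chd4 siSCR and 1.65% for Chd4 Ctrl. The order of the lists thus differed between the 4 ways of counting, and Chd4 iKO led it in the count by highest score with satellites. Of all Chd4 iKO peaks, 4.79% overlapped a Chd4 siSeh1 peak, 1.61% a Chd4 siSCR peak, 0.85% a Seh1-flag peak and 0.0657% a Chd4 Ctrl peak.

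**Figure D5:**
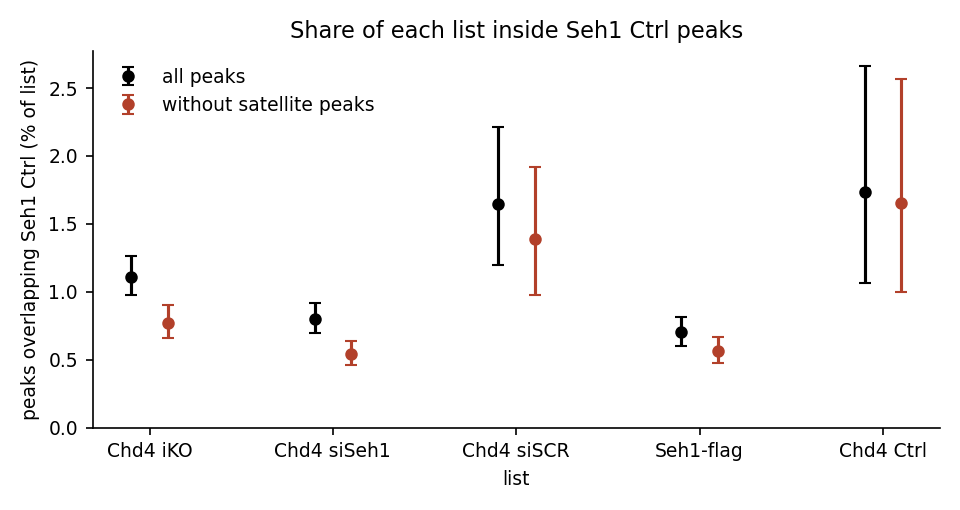
Share of each list's peaks that overlapped a Seh1 Ctrl peak, for all peaks (black) and without satellite peaks (red); bars are exact 95% binomial intervals, which are wide for the short lists Chd4 siSCR and Chd4 Ctrl. Chd4 iKO stands at 1.11% and 0.774%, between the long lists Chd4 siSeh1 and Seh1-flag and the short ones.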

How the data were processed

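The authors deposited 1 annotated peak list per library, on mouse build mm10 and annotated with HOMER, per the file headers. The submitters' processing notes name Bowtie2 and HOMER with no version, and human builds rather than mm10. Caller, threshold and input: not given in the sources used here. Depth is unknown. The deposited peak score has no stated scale. The other deposited columns used were positions, distances to the TSS and annotations. Intervals 240 to 1296 bp wide make up the Seh1 Ctrl list, and single positions the others, per the file headers and values.

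Summits were widened to 240 bp and overlaps of at least 1 bp counted, in Python 3.11.15 with pandas 2.3.3, numpy 2.4.6 and scipy 1.17.1. bedtools 2.31.1 gave the same 237 overlapping peaks, and planted overlaps were recovered in a test on simulated data. Gene types and lengths came from RefSeq (GRCm38.p6), which matched 99.8% of the 13492 gene identifiers of both lists.

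The members, the gene lists and the rule for named genes were chosen with earlier results of these data known. The rule takes promoter genes of both lists, overlapping pairs of highest score or near a start site or in other lists, genes with most peaks in both, the 3 longest, members of the 11 lists of genes, and also Seh1l, Chd4 and Cdkn1a. Predicted and microRNA genes are counted and mostly not named. Alternatives changed the overlap, windows, score limit, chromosomes, repeats, dense bins and promoter distance; leaving out satellites or the 3 stretches, and comparing lists of equal length, was added after seeing the data.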

Additional observations from a re-analysis of the deposited data

How the results depend on the processing

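No paired analysis was possible because each group holds 1 library. Of the 66 checks on the main results, 27 moved by less than the counting interval (for a count, less than 1.5 times) and 39 moved by more. A change of direction was looked for only in the difference of median scores, where 0 occurred. Shares, counts and the density ratio were not scored for direction. The share of Chd4 iKO peaks inside Seh1 Ctrl peaks was 0.803% with at least 120 bp of overlap, 1.39% with windows of 500 bp, 5.35% for scores of at least 5, 0.917% on autosomes and X, 0.562% outside repeats in both lists, 0.693% without the 200 kb bins that hold 10 or more peaks, 0.774% without satellites and 0.773% without the 3 stretches. For the share of Seh1 Ctrl peaks the same settings gave 0.816%, 1.42%, 0.437%, 0.936%, 0.584%, 0.705%, 0.791% and 0.790%. The density ratio was 2.86 for scores of at least 5, 1.56 without dense bins and 1.65 without the stretches. Genes with promoter peaks in both lists numbered 4 for scores of at least 5, 6 within 500 bp and 39 within 2000 bp. The promoter share of shared iKO peaks was 1.10% for scores of at least 5, 11.3% (4.66 to 21.9%) outside repeats and 0.844% within 500 bp. The promoter share of unshared peaks was not computed for these settings. The repeat share of shared iKO peaks was 76.0% with 120 bp of overlap, 90.1% for scores of at least 5, 57.6% without dense bins, 55.5% without satellites and 56.1% without the stretches. The median score of shared minus unshared iKO peaks was 1.62 with 120 bp of overlap, 4.35 for scores of at least 5, 0.429 on autosomes and X, 0.223 outside repeats, 0.0110 without dense bins and 0.0658 without satellites or without the stretches. Genes named by both were 56.8% for scores of at least 5 and 42.8% outside repeats. Wider or narrower windows, score limits and left-out peaks change the counts by construction; beyond that the cause was not tested. Unknown depth, an unscored Seh1 Ctrl list and single libraries limit all values.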
